A study of Mus musculus and Homo sapiens with 32 samples.

Results

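A set of 257 transcript regions, in 215 genes, had a low ratio of N6-methyladenosine (m6A) signal to input in mouse embryonic stem cells without Mettl3 and a raised one in wild-type cells. They were taken from 33473 regions that the authors compared between genotypes, of which 23102 had an input RPM (reads scaled to the library total) of at least 0.5 in both genotypes. A member had an m6A-CT over input ratio of at most 1.5 in Mettl3 KO cells and of at least 4 in wild-type cells. The rule thus took 1.11% of the regions at the input minimum. Another 7814 regions reached the same wild-type ratio but stayed above 1.5 in Mettl3 KO cells, and 2685 of those stayed at 4 or more.

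m6A is the most common internal methyl mark of messenger RNA. Mettl3 is the catalytic subunit of the complex that writes it in the nucleus, and the mark is known for shortening the life of pluripotency transcripts in mouse embryonic stem cells. It tends to sit in long internal exons and near stop codons, and it is bound by reader proteins that act on splicing, decay and translation. m6A-CT directs a Tn5 transposase with an anti-m6A antibody to RNA paired with cDNA inside nuclei, and an input library is tagmented without antibody.

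The ratios came from 8 libraries in 4 groups of 2. These were m6A-CT and input of C57BL/6 Mettl3-/- (KO) embryonic stem cells, and m6A-CT and input of C57BL/6 wild-type embryonic stem cells, with a MilliporeSigma antibody against m6A. How the Mettl3 alleles were made, and whether each genotype is 1 clone, is not given in the labels. Peak lists of other cells were made with a Synaptic Systems antibody and 100K nuclei a library. They came from expanded potential stem cells (EPSC, labelled as line E14), from E14 embryonic stem cells and from CF1 mouse embryonic fibroblasts (MEF), each with 2 m6A-CT and 2 input libraries.

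The genotype table held 1 pooled column for each genotype and library kind, so no value below has an error between replicates and no test between replicates was made. Intervals are 95% counting intervals from reads recovered from the RPM steps. They cover counting error only, since reads from PCR without molecular identifiers are not independent molecules. Totals were 37532658 reads for Mettl3 KO m6A-CT, 51031598 for Mettl3 KO input, 39310394 for wild-type m6A-CT and 45090626 for wild-type input. Regions of Lars2 and Rn45s took 54.5% and 81.0% of the Mettl3 KO m6A-CT and input reads, against 36.5% and 76.4% of the wild-type m6A-CT and input reads. Of 13 embryonic stem cell markers, 10 had a region in the table, at 4.39 to 208 RPM in Mettl3 KO input and 4.72 to 225 RPM in wild-type input. By RPM each of the 10 was lower in Mettl3 KO input, and they summed to 746 RPM there against 1148 RPM in wild-type input. Input was higher in Mettl3 KO cells in 42.8% of all regions at the input minimum. With RPM taken over reads outside Lars2 and Rn45s, every log2 input difference is 0.31 higher. Esrrb and Dppa4 are then higher in Mettl3 KO input, and the other markers of the 10 stay lower. The widest gap was in Tfcp2l1, at 58.3 RPM in Mettl3 KO input and 221 RPM in wild-type input. Fibroblast markers summed to 1.53 RPM in Mettl3 KO input and 0.399 RPM in wild-type input over 3 of 10 genes, and trophectoderm and primitive endoderm markers to 1.35 RPM in Mettl3 KO input and 1.29 RPM in wild-type input over 3 of 7. Neural and germ layer markers summed to 8.45 RPM in Mettl3 KO input and 6.50 RPM in wild-type input over 3 of 5. Most of that was Nes, at 8.33 RPM in Mettl3 KO input and 6.45 RPM in wild-type input. The 1 listed Mettl3 region, at chr14:52919391-52919765 of mm9, had 2.47 RPM in Mettl3 KO input and 1.71 RPM in wild-type input. Where this stretch lies relative to the deletion is not given, so it does not check the genotype.

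The ratio is a ratio of RPM values, and 1 is not its neutral point. Over all regions at the input minimum the median ratio was 1.99 in Mettl3 KO cells and 3.01 in wild-type cells. The members' medians were 1.27 in Mettl3 KO cells and 4.59 in wild-type cells. The members thus stood at 0.636 times the median of all regions in Mettl3 KO cells and at 1.52 times that median in wild-type cells. With RPM taken over reads outside Lars2 and Rn45s, the same 257 regions had median ratios of 0.529 in Mettl3 KO cells and 1.70 in wild-type cells, and all regions had 0.831 in Mettl3 KO cells and 1.12 in wild-type cells. That scale multiplies every ratio by 0.417 in Mettl3 KO cells and by 0.371 in wild-type cells, so the members' highest wild-type ratio becomes 3.45. Unchanged thresholds of 1.5 and 4 then chose 78 other regions and, by this construction, 0 of the 257. Thresholds moved by the same factors, to 0.625 in Mettl3 KO cells and 1.48 in wild-type cells, choose the same 257.

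**Figure D1:**
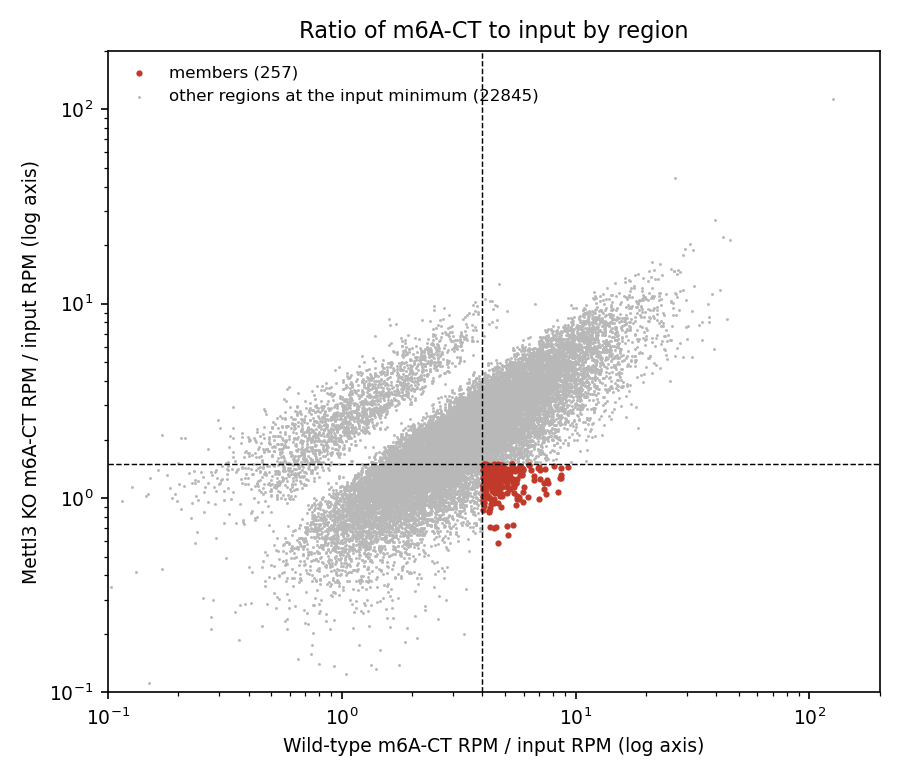
Each point is 1 region at the input minimum, with its m6A-CT over input ratio in Mettl3 KO cells (y axis, log) against that in wild-type cells (x axis, log), and dashed lines mark 1.5 and 4. The 257 members (red) fill the lower right corner close to both lines. A gap runs between 2 clouds of points, the authors' table holds mainly regions past their FDR of 0.05, and 5 regions lie outside the axes.

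The values in this paragraph chose the members and are a description. The Mettl3 KO ratio of the members ran from 0.586 to 1.499, and the wild-type ratio from 4.003 to 9.29. The wild-type ratio was at most 5 in 177 members and above 8 in 7. In the authors' deposited table the log2 fold change of m6A-CT over input between Mettl3 KO and wild-type was -3.49 to -1.94 in the members, with a median of -2.43. The FDR of the authors' deposited table was at most 0.000498 over the members, and 88.8% of all its regions were past an FDR of 0.05 in the same direction. By RPM the ratio was at least 2 times lower in Mettl3 KO cells in all 257 members, as it was in 26.7% of regions at the input minimum.

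The members lie close to the thresholds and many rest on few reads. The Mettl3 KO counting interval lay below 1.5 in 62 members and the wild-type interval above 4 in 60. Both lay clear in 12 members, in Cldn4, 1700017B05Rik, Rbm15b, Chpf, Cant1, Lrfn1, Bcar1, Vps18, Dio3, Lrrn2, Nuak2 and Dhrs13. The Mettl3 KO interval covered 1 in 167 members. At the Mettl3 KO threshold Itpkb, 2510039O18Rik and Parp9 were inside at 1.4994, 1.4984 and 1.4956, and Arhgef17, Dnajc22 and Bbx outside at 1.5003, 1.5003 and 1.5013. At the wild-type threshold Zfp747, Klc3 and Ercc4 were inside at 4.0027, 4.0146 and 4.0147, and Tfap2c, Mn1 and Zscan20 outside at 3.9969, 3.9925 and 3.9898. At the Mettl3 KO input minimum Adgrl1 and Slc35b1 were inside with 26 reads each and Lama1 with 27, and Gata4 was outside with 25 and Arid3a and Vps13b with 24 each. At the wild-type input minimum Btbd6, E130308A19Rik and Enpp5 were inside with 23 reads each, and Armc5, Armh4 and Dnaaf1 outside with 22 each. The regions on either side of a threshold thus had nearly the same values.

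The members with the most reads were 10 regions of genes with varied roles, and in all 10 the wild-type m6A-CT column stood above the other columns. The highest count was in Cldn4, which codes for the tight junction protein claudin-4. Its region at chr5:135420993-135422804 had 30.9 RPM in Mettl3 KO m6A-CT and 24.6 RPM in Mettl3 KO input, against 142 RPM in wild-type m6A-CT and 26.3 RPM in wild-type input. The ratio was 1.26 (1.16 to 1.36) in Mettl3 KO cells and 5.41 (5.08 to 5.76) in wild-type cells. Input was thus near level between the genotypes, and the m6A-CT column carried the difference. Nodal, a ligand of the TGF-beta family that patterns the early embryo, had a region at chr10:60885731-60886430. It had 19.4 RPM in Mettl3 KO m6A-CT and 13.2 RPM in Mettl3 KO input, against 98.6 RPM in wild-type m6A-CT and 15.6 RPM in wild-type input. Its ratio was 1.47 (1.33 to 1.64) in Mettl3 KO cells and 6.32 (5.84 to 6.85) in wild-type cells. Nodal thus had the same form as Cldn4, with like inputs and a far lower m6A-CT column in Mettl3 KO cells.

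Rbm15b codes for a subunit of the m6A writer complex that links it to its RNA targets. Its region at chr9:106786316-106789331 had 23.9 RPM in Mettl3 KO m6A-CT and 17.8 RPM in Mettl3 KO input, against 82.1 RPM in wild-type m6A-CT and 18.8 RPM in wild-type input. Its ratio was 1.34 (1.23 to 1.47) in Mettl3 KO cells and 4.36 (4.05 to 4.71) in wild-type cells. Gemin4, a component of the SMN complex that assembles spliceosomal particles, was different in form. Its region at chr11:76024073-76027422 had 56.8 RPM in Mettl3 KO m6A-CT and 50.9 RPM in Mettl3 KO input, against 68.3 RPM in wild-type m6A-CT and 16.9 RPM in wild-type input. Here the m6A-CT columns were within 1 log2 unit of each other (log2 -0.27), and the input column was the one that differed most (log2 1.59). Chpf, which takes part in the polymerisation of chondroitin in the Golgi, lay between these forms, with log2 differences of -0.85 in m6A-CT and 1.06 in input.

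The 2 regions of this group named by RIKEN clone were also the ones with several blocks. 2510039O18Rik had 79.7 RPM in Mettl3 KO m6A-CT and 53.2 RPM in Mettl3 KO input, against 134 RPM in wild-type m6A-CT and 32.4 RPM in wild-type input. 1700017B05Rik had 41.8 RPM in Mettl3 KO m6A-CT and 38.8 RPM in Mettl3 KO input, against 118 RPM in wild-type m6A-CT and 26.4 RPM in wild-type input. In both, m6A-CT was lower and input higher in Mettl3 KO cells. Tnks1bp1 (a tankyrase-binding protein), Mex3d (an RNA-binding protein) and Fam43a completed the 10. Their ratios were 1.38, 1.42 and 1.44 in Mettl3 KO cells, against 5.51, 5.08 and 4.11 in wild-type cells.

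**Figure D2:**
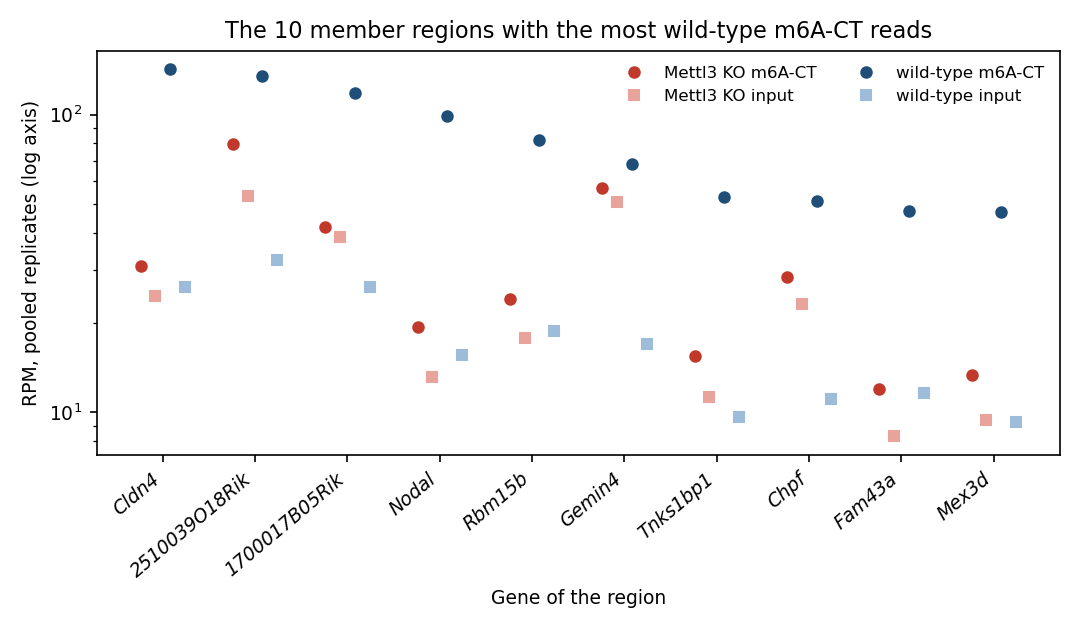
RPM of pooled replicates (y axis, log) in Mettl3 KO m6A-CT, Mettl3 KO input, wild-type m6A-CT and wild-type input for the 10 member regions with the most wild-type m6A-CT reads. Wild-type m6A-CT (dark blue), by which the regions were picked, is the highest column in each, from 142 RPM in Cldn4 to 47.1 RPM in Mex3d. Gemin4 stands out by an input of 50.9 RPM in Mettl3 KO cells against 16.9 RPM in wild-type cells.

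Among members with at least 50 input reads in each genotype, Sowahb, an ankyrin-repeat gene, had the lowest ratio change. Its region at chr5:93470149-93474048 had 1.76 RPM in Mettl3 KO m6A-CT and 1.39 RPM in Mettl3 KO input, against 14.1 RPM in wild-type m6A-CT and 1.64 RPM in wild-type input. The log2 change of the ratio was -2.77 with a counting error of 0.30. It was followed by Dhrs13 (a short-chain dehydrogenase gene) at -2.54, Gcnt2 at -2.49, Sall3 at -2.42 and Tmem51 at -2.33. Gcnt2 makes the branched I antigen on glycans, and Sall3 is a zinc finger transcription factor of the spalt family. Nuak2 (a kinase related to AMPK), Mycl (a transcription factor of the Myc family), Mfsd5, Lrfn1 and Lingo3 lay between -2.27 and -2.22. The m6A-CT level of Mycl was 3.44 RPM in Mettl3 KO cells, against 24.0 RPM in wild-type cells. Lingo3, in contrast, had nearly level m6A-CT, at 3.92 RPM in Mettl3 KO cells and 4.48 RPM in wild-type cells, with an input of 4.53 RPM in Mettl3 KO cells against 1.11 RPM in wild-type cells.

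Both terms of the ratio differed between genotypes in the members. m6A-CT RPM was lower in Mettl3 KO cells in 253 of 257 members, with a median log2 difference of -1.57. It was lower in 94.96% of the other wild-type enriched regions and in 84.9% of all regions at the input minimum, against 98.4% of the members. In the other wild-type enriched regions that median was -0.97, and over all regions at the input minimum -0.69. The 4 members whose m6A-CT RPM was not lower were in Lrrn2, B3gnt7, Fam84b and Ccdc85b. Input RPM was higher in Mettl3 KO cells in 192 members (74.7%), against 42.8% of all regions, with a median log2 difference of 0.47 and quartiles of -0.00 and 0.89. It was at least 1.5 times higher in 113 members (44.0%) and at least 1.5 times lower in 13 (5.06%). Over all regions at the input minimum those shares were 12.3% and 19.8%, and the median log2 difference was -0.10. The rule divides by these inputs, so the difference is a description of what the rule took and supports nothing.

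The counting interval of the input difference lay above 0 in 126 members and below 0 in 23. With RPM taken over reads outside Lars2 and Rn45s, every log2 input difference is 0.31 higher. The median then was 0.78 in the members and 0.22 over all regions, so the direction over all regions flips while the members stay 0.57 above it. On that scale input was higher in Mettl3 KO cells in 224 members (87.2%) and in 65.0% of all regions, and at least 1.5 times higher in 60.7% and 25.7%. m6A-CT was then lower in Mettl3 KO cells in 239 members (93.0%) and in 63.1% of all regions.

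Lrrn2, a leucine-rich neuronal membrane protein, had the highest input difference of the members. Its region at chr1:134833562-134836582 had 14.1 RPM in Mettl3 KO m6A-CT and 12.3 RPM in Mettl3 KO input, against 9.72 RPM in wild-type m6A-CT and 1.91 RPM in wild-type input. The low ratio in Mettl3 KO cells stood beside an input that was 2.69 log2 units higher, and m6A-CT was also higher, by 0.54. B3gnt7, which adds N-acetylglucosamine to glycans, had 9.11 RPM in Mettl3 KO m6A-CT and 6.49 RPM in Mettl3 KO input, against 8.19 RPM in wild-type m6A-CT and 1.97 RPM in wild-type input. Icam1, a cell adhesion molecule, was a member of the opposite form. It had 3.36 RPM in Mettl3 KO m6A-CT and 2.41 RPM in Mettl3 KO input, against 24.4 RPM in wild-type m6A-CT and 5.08 RPM in wild-type input. Icam1 was thus lower in Mettl3 KO cells in both columns, with the larger difference in m6A-CT.

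**Figure D3:**
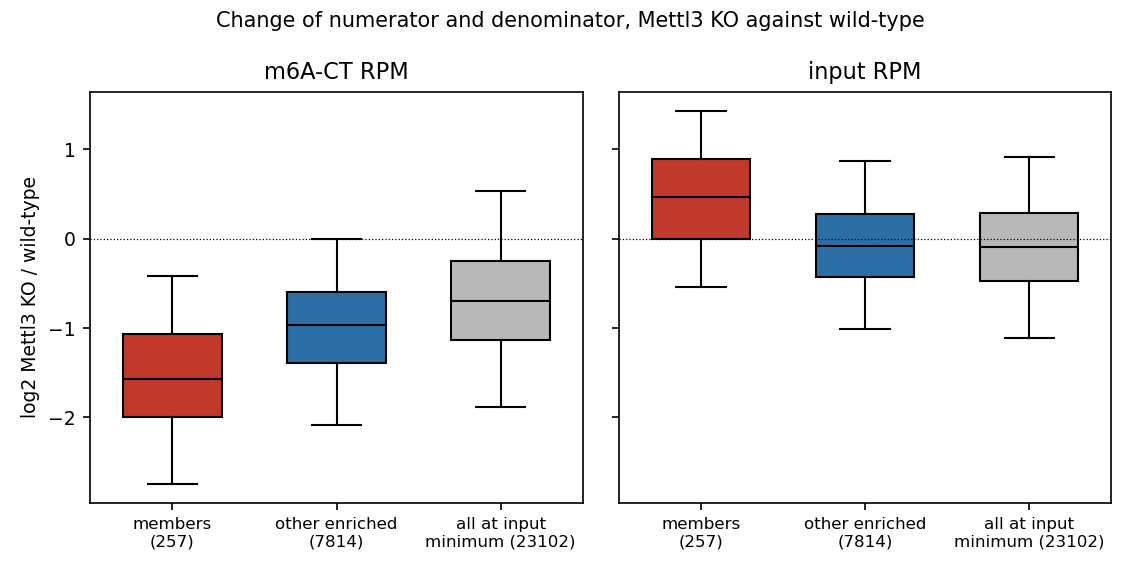
Log2 of Mettl3 KO over wild-type RPM (y axis) for m6A-CT (left) and input (right) in the 257 members, the 7814 other wild-type enriched regions and all 23102 regions at the input minimum. Boxes span the quartiles with a line at the median and whiskers at the 5th and 95th percentile; the members' medians are -1.57 for m6A-CT and 0.47 for input.

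The other listed regions of the same genes were not chosen by the rule, although they share the libraries. There were 798 of them at the input minimum, in 149 of the genes, and 66 genes had none. Their median ratio was 1.82 in Mettl3 KO cells and 3.802 in wild-type cells, a median log2 change of -1.12. In the 22047 regions of genes with no member that median was -0.63. Those regions had median ratios of 2.02 in Mettl3 KO cells and 2.94 in wild-type cells, so the groups were not matched for wild-type ratio. The 798 regions had a median log2 input difference of 0.01, against -0.11 in regions of other genes. Input was higher in Mettl3 KO cells in 50.4% of the 798, against 42.2%. In 114 of the 149 genes the members' input difference lay above that of the gene's other regions. The rule divides by the members' own inputs and not by those of these regions.

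Of these 798 regions, 437 were under a wild-type ratio of 4 and 361, in 107 genes, were at or over it with a Mettl3 KO ratio above 1.5. In 14 of these 107 genes a member stood beside a region that kept a ratio of 4 or more in both genotypes. Such kept regions were 28 of the 361. Over all 7814 other wild-type enriched regions they were 2685, in 1207 of 3100 genes. The share of kept regions was thus lower in genes with a member. The members lay before the kept regions along the strand in 10 of the 14 genes, after them in 2 and between them in 2, with no like count for other regions. Hip1, a clathrin adaptor gene, is an example. Its member at chr5:135898013-135898087 had a ratio of 0.714 in Mettl3 KO cells and 4.57 in wild-type cells. Its last listed region, chr5:135882388-135887137, had 4.51 in Mettl3 KO cells and 9.40 in wild-type cells. Pkd1, which codes for polycystin-1, had its member as the first of 29 listed regions, with ratios of 0.987 in Mettl3 KO cells and 5.62 in wild-type cells. Its 12th region, chr17:24709573-24713172, had 4.69 in Mettl3 KO cells and 23.0 in wild-type cells. In Erbb2, a receptor tyrosine kinase gene with 20 listed regions, the members were the 5th and the 8th and the kept regions the 18th, 19th and 20th. The member regions and the kept regions of 1 gene were different stretches of 1 gene. Kmt2b went the other way, with its members the 33rd and 34th of 35 regions and its kept region the 25th.

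Along the strand, the members lay before the other enriched regions of their gene in 76 of 107 genes, after them in 26 and level with them in 5. No like count was made for regions that are not members. The median relative rank, which rises along the strand, was 0.5 in the members and 0.5 over all regions at the input minimum. In the other enriched regions it was 0.70, so the count is no trait of the members alone. Of the 218 members in genes with several listed regions, 36 (16.5%, 12.2 to 22.0) were the first and 41 (18.8%, 14.2 to 24.5) the last. The other wild-type enriched regions were the first in 5.51% and the last in 29.3%. Over all regions at the input minimum these shares were 17.3% and 20.4%, so the members fell into place much as listed regions in general do. Another 39 members (15.2%, 11.3 to 20.1) were the sole listed region of their gene, against 8.79% of the other enriched regions and 8.87% of all regions. In this share the members thus lay above regions at large. Position is relative to the listed regions, since no annotation of the mm9 build was used here.

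Exonic length, the sum of a region's blocks, had a median of 300 bp in the members, with quartiles of 100 and 1461 bp and a range of 25 to 6864 bp. The members' median depends on the choice of regions, at 1567 bp with an input minimum of 2 RPM, 500 bp with 1 region per gene and 1420.5 bp in the 78 regions chosen without Lars2 and Rn45s. The medians were 250 bp in the other wild-type enriched regions, 350 bp in those at 4 or more in both genotypes and 175 bp over all regions at the input minimum. A length of at most 100 bp was found in 80 members (31.1%, 25.8 to 37.0), against 24.5% of the other enriched regions and 31.7% of all regions. A length of at least 1000 bp was found in 89 members (34.6%, 29.1 to 40.6), against 39.05% of the other enriched regions and 23.4% of all regions. The longest members were Itpripl2, the region named Kctd12 and Mir5130, Fam84b and Ccdc71, at 6864, 6050, 5563 and 5420 bp. The shortest were of 25 bp and lay in Sulf2 (which removes 6-O-sulfates from heparan sulfate), Map2k3 (a kinase upstream of p38), Gm8909 and Sh3tc1. Median Mettl3 KO ratios were 1.25 up to 100 bp and 1.30 from 1000 bp, and median wild-type ratios 4.58 and 4.65. The rule bounds both ratios, so short and long members could differ little in them. They differed in depth, with a median of 35.5 wild-type input reads in the short ones and 96 in the long ones.

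A single block was given for 250 members, and 7 (2.72%, 1.33 to 5.51) had more, against 2.32% of the other wild-type enriched regions and 1.99% of all regions. Cant1, a calcium-activated nucleotidase of the Golgi, had 7 blocks over chr11:118267603-118280432, with an exonic length of 3273 bp. Its ratio was 1.28 (1.12 to 1.45) in Mettl3 KO cells and 5.11 (4.55 to 5.74) in wild-type cells. Ccdc116 had 5 blocks, 1700034P13Rik had 4 and 2510039O18Rik had 3. Ccdc116 and 1700034P13Rik were among 10 members that overlap a listed region of another gene on the opposite strand, and their reads cannot be told apart from those of that gene where counting ignored strand. The others were Tmem51, Msto1, Mrps7, Fam84b, Klc3, Mitd1, Dhrs13os and Ndufa13.

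**Figure D4:**
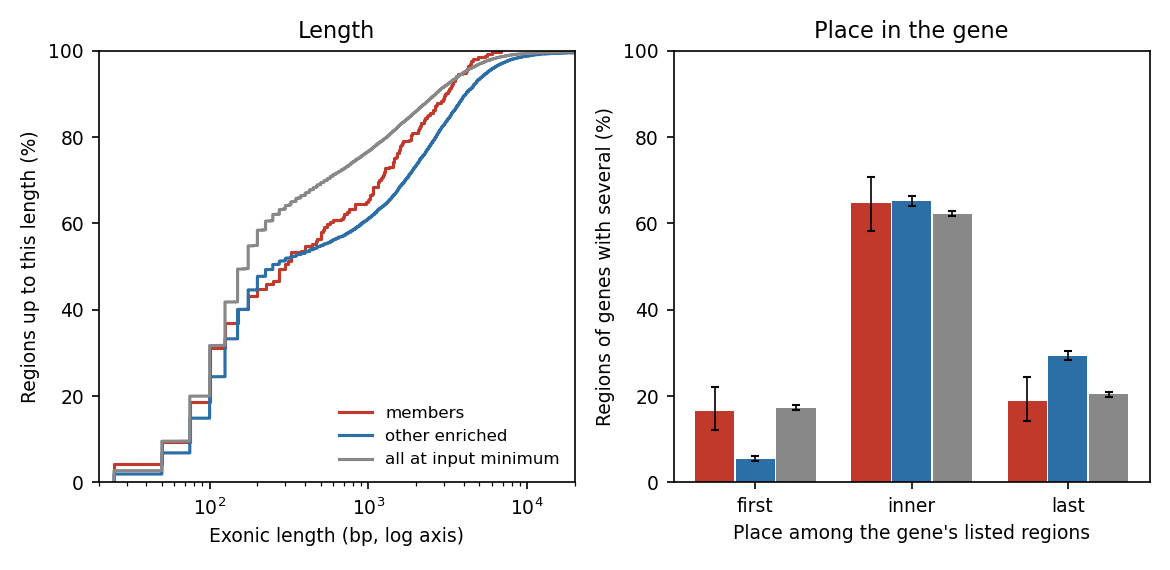
Left, cumulative share of regions (%) by exonic length (bp, log axis) for the members, the other wild-type enriched regions and all regions at the input minimum, with medians of 300, 250 and 175 bp. Right, share (%) of regions that were the first, an inner or the last listed region of a gene with several, in the same colours, with Wilson 95% intervals; 16.5% of members were first, against 5.51% of the other enriched regions and 17.3% of all.

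The MACS2 peak lists of other cells were not used by the rule, and the share of members they met differed widely between lists. A region counted as met when at least 1 bp of its blocks lay under a peak, on either strand. A peak of the E14 list met 5 members (1.95%, 0.834 to 4.47), of the EPSC list 30 (11.7%, 8.30 to 16.2) and of the MEF list 114 (44.4%, 38.4 to 50.5). Among the other wild-type enriched regions these shares were 29.2%, 44.3% and 73.0%, and among those at 4 or more in both genotypes 52.1%, 68.2% and 82.2%. Over all regions at the input minimum they were 12% for E14, 20.1% for EPSC and 48% for MEF. The members' share thus lay below that of the other enriched regions for each list, and below that of regions at large for both stem cell lists. At an input minimum of 2 RPM the members' shares were 4.76% for E14, 28.6% for EPSC and 65.1% for MEF, against 47.4%, 65.7% and 84.1% of the other enriched regions and 17.3%, 27.6% and 55.8% of regions at large. The EPSC share then no longer lay below that of regions at large, and the MEF share lay above it. In the 12 members with both counting intervals clear of the thresholds the EPSC share was 50.0%, and the E14 and MEF shares were 8.33% and 66.7%. Clear intervals need many reads, while the 44.3% for EPSC covers other enriched regions of any depth. Those at 2 RPM or more had 65.7%, so the 50.0% and the 44.3% are not on 1 footing. In the 78 regions chosen without Lars2 and Rn45s the shares were 43.6%, 67.9% and 80.8%, against 68.2%, 79.1% and 86.5% of the other regions enriched on that scale, and all 3 lay above those of regions at large. These intervals cover counting of regions alone. There is 1 list for each cell type, and no test between replicates could be made.

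Across regions at 4 or more in wild-type cells, the share met was higher at each step of the Mettl3 KO ratio. For E14 it was 1.95% in the members, 7.46% at ratios above 1.5 to 2, 14.5% above 2 to 3, 23.1% above 3 and below 4, and 52.1% at 4 or more. For MEF it was 44.4%, 58.8%, 66.3%, 73.2% and 82.2% over the same steps. With the wild-type ratio held at 4 to 6, the members' shares were 2.15% for E14, 11.6% for EPSC and 42.9% for MEF. The other regions of that wild-type range had 15.2%, 28.6% and 66.3%. With 100 to 300 wild-type m6A-CT reads, 0 of 149 members met an E14 peak, which allows a share of up to 2.01%. The E14 share there was 3.14% at Mettl3 KO ratios above 1.5 to 2 and 13.8% at 4 or more. The MEF share there was 37.6% (30.2 to 45.6) in the members. It was 43.7% (38.6 to 49.0) above 1.5 to 2, with overlapping intervals, and 70.5% at 4 or more. The gap to the next step was thus small at like depth. Under 500 bp the E14 share was 0.690% in members, 3.48% above 1.5 to 2 and 43.2% at 4 or more. From 500 bp it was 3.57%, 12.3% and 61.5% in the same order. The members had the lowest share of the 5 steps for each list within each of these ranges. The regions of higher Mettl3 KO ratio also had more reads, with medians of 204 wild-type m6A-CT reads in the members and 728 at 4 or more, and the part of depth in the remaining difference was not tested.

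**Figure D5:**
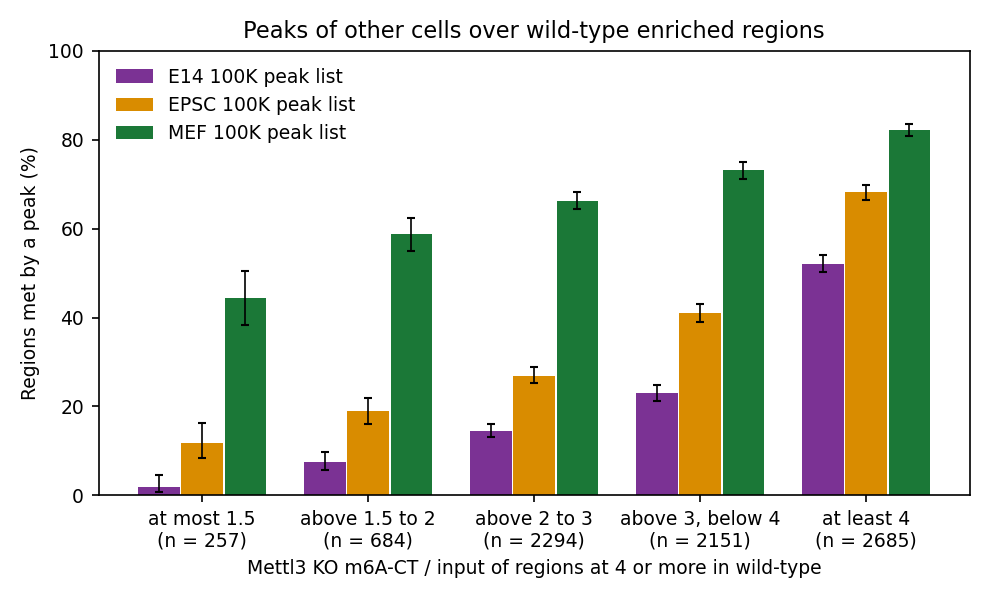
Share (%) of regions at 4 or more in wild-type cells that were met by a peak of the E14, EPSC or MEF 100K list (y axis), by their m6A-CT over input ratio in Mettl3 KO cells (x axis), with Wilson 95% intervals as bars. The members at the left have the lowest shares, at 1.95%, 11.7% and 44.4%, and regions at 4 or more in both genotypes at the right the highest, at 52.1%, 68.2% and 82.2%.

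Among the members, 136 (52.9%) met none of the 3 lists and 91 met the MEF list alone. Another 19 met the EPSC and MEF lists, 6 the EPSC list alone, 4 all 3 lists and 1, in the zinc finger gene Zfp398, both stem cell lists without the MEF list. All 5 members met by an E14 peak were also met by an EPSC peak. The MEF list held 38205 peaks, the EPSC list 12183 and the E14 list 8052, so their shares are not on 1 footing. With the 8052 strongest peaks of each list, the members' shares were 1.95%, 6.61% and 15.2% for E14, EPSC and MEF, against 29.2%, 33.7% and 31.5% of the other enriched regions.

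The 4 members met by all lists were in Cant1, Vps18, Mfsd5 and Fbxo30. In the authors' deposited E14 list the fold enrichment of their peaks was 4.63 in Cant1, 5.27 in Vps18 and 3.03 in Mfsd5. Vps18 codes for a subunit of the complexes that tether vesicles to endosomes and lysosomes. Its region at chr2:119118657-119120506 had 19.5 RPM in Mettl3 KO m6A-CT and 15.5 RPM in Mettl3 KO input, against 34.5 RPM in wild-type m6A-CT and 7.96 RPM in wild-type input. Fbxo30, an F-box gene of a ubiquitin ligase, stood apart. The peak over its 150 bp member at chr10:11001128-11001277 had a fold of 152 in the authors' E14 list, 63.6 in the EPSC list and 17.3 in the MEF list. The region itself held 1.94 RPM in Mettl3 KO m6A-CT and 1.31 RPM in Mettl3 KO input, against 2.52 RPM in wild-type m6A-CT and 0.554 RPM in wild-type input. A stretch that ranked far above other members in the other cells was thus thinly covered in the genotype set. The next highest EPSC fold over a member was 8.41, at Kmt2b.

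Of members met by no list, Nodal, Ccdc71, Lrfn1, Coil and Icam1 had the most reads. Coil codes for coilin, the marker protein of Cajal bodies. It had 10.2 RPM in Mettl3 KO m6A-CT and 7.37 RPM in Mettl3 KO input, against 26.9 RPM in wild-type m6A-CT and 6.50 RPM in wild-type input. Members met by the MEF list alone were led by Gemin4, Chpf, Tpbg, Gcnt2 and Gmeb2. Tpbg codes for the trophoblast glycoprotein and had a ratio of 1.48 in Mettl3 KO cells and 4.80 in wild-type cells. Members met by a stem cell list were longer and deeper, with a median of 1831 bp and 694 wild-type m6A-CT reads. Those met by no list had a median of 212.5 bp and 167 reads. Their median ratios, which the rule bounds, were 1.30 and 1.25 in Mettl3 KO cells and 4.47 and 4.52 in wild-type cells. Among the members met by a list, the median part under its peaks was 11.4% for the 5 of E14, 28.9% for the 30 of EPSC and 99.4% for the 114 of MEF.

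The MeTPeak lists came from the same libraries as the rule and only describe it. A Mettl3 KO MeTPeak peak met 45 members (17.5%) and a wild-type peak 224 (87.2%). Of the other enriched regions, a Mettl3 KO peak met 80.0% and a wild-type peak 94.7%, and of all regions at the input minimum 57.3% and 72.1%. Both genotypes had a peak on 44 members, and in all 44 the authors' fold was lower in Mettl3 KO, with medians of 2.40 in Mettl3 KO and 17.8 in wild-type. A Mettl3 KO peak alone met 1 member, a wild-type peak alone met 180 and 32 had none.

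Of the 215 genes, 181 held 1 member, 28 held 2 and 6 held 3 or more. Zcchc2, a zinc knuckle gene, had 4 members among 13 listed regions, all of 50 or 75 bp. Their ratios were 1.08 to 1.32 in Mettl3 KO cells and 5.90 to 8.71 in wild-type cells, and all 4 met a MEF peak and no stem cell peak. Sh3tc1 also had 4 members, with ratios of 1.19 to 1.48 in Mettl3 KO cells and 4.18 to 5.57 in wild-type cells, and no peak of the 3 lists. H6pd (an enzyme that makes NADPH in the endoplasmic reticulum), Dhrs13, Tpst2 (which sulfates tyrosines of secreted proteins) and Ppp1r16a (a regulatory subunit of protein phosphatase 1) had 3 each. In Tpst2 the inputs were 2.27 to 6.51 RPM in Mettl3 KO cells, against 0.887 to 2.33 RPM in wild-type cells, and m6A-CT was 2.85 to 7.70 RPM in Mettl3 KO cells, against 3.64 to 10.8 RPM in wild-type cells. Members of 1 gene share its transcript level and are not separate replicates.

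By gene list, the members were spread thinly, and 3.18% of all wild-type enriched regions were members. Signalling genes of the Wnt, Notch, Hedgehog and TGF-beta pathways held 5 members among 130 enriched regions (3.85%), in Nodal, Lrp5, Hes1 and Znrf3. Lrp5 is a Wnt co-receptor, Znrf3 a ubiquitin ligase that removes Wnt receptors and Hes1 a repressor switched on by Notch. The Lrp5 member had a ratio of 1.47 in Mettl3 KO cells and 4.03 in wild-type cells, and the Hes1 member 1.36 in Mettl3 KO cells and 4.96 in wild-type cells. The feedback genes of FGF, ERK and cytokine signalling had 1 member among 12 enriched regions, in Spry1, an inhibitor of receptor tyrosine kinase signalling. It had 4.32 RPM in Mettl3 KO m6A-CT and 3.25 RPM in Mettl3 KO input, against 13.2 RPM in wild-type m6A-CT and 2.86 RPM in wild-type input. The naive pluripotency genes had 1 member among 65 enriched regions, in Gbx2, a homeobox gene downstream of LIF and Stat3. Of the 65, 35 kept a ratio of 4 or more in Mettl3 KO cells, against 2685 of 8071 enriched regions over all genes. Gbx2 had ratios of 1.42 (0.940 to 2.15) in Mettl3 KO cells and 4.68 (3.02 to 7.25) in wild-type cells, so its counting intervals cover both thresholds.

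Among chromatin genes, the trithorax and histone methyltransferase list held 4 members among 138 enriched regions (2.90%), 2 each in Kmt2b and Setd1b. Both genes code for methyltransferases of histone H3 lysine 4. The polycomb list had 0 members among 46 enriched regions and the SWI/SNF and CHD list 0 among 88, which allow shares of up to 6.52% and 3.41%. Of the m6A writers, erasers and readers, Rbm15b alone held a member, 1 of 34 enriched regions. The Zfp genes held 9 members among 257 enriched regions (3.50%), in Zfp217, Zfp26, Zfp398, Zfp513, Zfp628, Zfp687, Zfp747 and Zfp865. Zfp747 held the lowest Mettl3 KO ratio of the set, 0.586 (0.367 to 0.937), over 375 bp. The Zbtb, Zscan and Zkscan factors held 2 among 51, in Zbtb24 and Zbtb49.

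Solute carriers, the membrane transporters, held 9 members among 184 enriched regions (4.89%), in Slc1a4, Slc20a2, Slc26a2, Slc35b1, Slc37a3, Slc44a2 and Slc7a6. The phosphate transporter gene Slc20a2 had its larger member at ratios of 1.35 in Mettl3 KO cells and 4.42 in wild-type cells. Sesn1, a target of p53, held the 1 member among 11 enriched regions of the apoptosis and p53 list. The immediate early, Kruppel-like factor, cell cycle and long noncoding RNA lists had 0 members among 4, 12, 25 and 6 enriched regions. No region of the 23 cytosolic ribosomal protein genes at the input minimum reached a wild-type ratio of 4, so none could be a member. With member counts this small, no list is set apart from the share of members over all genes.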

How the data were processed

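Libraries of m6A-CT and input were compared; the sets used were C57BL/6 Mettl3 KO and wild-type stem cells, with 2 libraries in each group. Per the submitters' processing notes, Trim Galore, STAR 2.7.2, MACS2 and mm9 were used, and per the labels' descriptions MeTPeak and exomePeak2 for the genotype set. In the exomePeak2 table the authors deposited RPM values, 1 column for each genotype and library kind, a log2 fold change, a p-value and an FDR. In the MACS2 lists the authors deposited a score, a fold enrichment, -log10 p and -log10 q for each peak. In the MeTPeak lists the authors deposited a fold, a p-value, log10 values and an FDR. Other deposited columns give positions and blocks.

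RPM values were whole multiples of 1 read within 0.01 reads for at least 99.99% of regions, which gave back reads and totals. Ratios of RPM, counting intervals (95%, from the logarithm of Poisson reads) and Wilson intervals of shares were computed with Python 3.11.15, pandas 2.3.3, numpy 2.4.6 and scipy 1.17.1, and drawn with matplotlib 3.10.9. For gene lists with 0 members, the upper limit given is 3 regions over the enriched regions of the list. Starts were turned to 1-based. The selection and the overlap count were tested on simulated data. No counts per library were used here, so the planned count model was not run, and differences are given by the authors' deposited p-value and by values alone.

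Members and gene lists were chosen with earlier results of these data known. Named were the 10 members with the most wild-type m6A-CT reads, the 10 with the lowest ratio change at 50 or more input reads in each genotype, the 6 genes with the most members, the 4 longest, 4 shortest and 4 with the most blocks, up to 4 members for each gene list, 3 on each side of each threshold, up to 5 in each of the patterns of peak overlap named in the text, and Mettl3. Hip1, Pkd1, Erbb2, Lrrn2, B3gnt7 and the remaining named genes were chosen after their values were seen. Alternatives changed the scale, the thresholds, the input minimum, the peak lists and the unit of counting.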

Additional observations from a re-analysis of the deposited data

How the results depend on the processing

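No paired analysis was possible because the pooled columns carry no replicate numbers, and leaving out a replicate, edgeR and DESeq2 were not run for the same reason. The number of members was 257. It was 78 with RPM taken over reads outside Lars2 and Rn45s, 114 and 63 at input minima of 1 and 2 RPM, 29 and 941 at Mettl3 KO ratios of 1 and 2, and 868 and 24 at wild-type ratios of 3 and 6. The shares met by E14, EPSC, MEF and all 3 lists were 1.95%, 11.7%, 44.4% and 1.56%. They were 0.389%, 3.50%, 38.1% and 0.389% where 50% of the exonic length had to be covered, 0.389%, 3.89%, 34.6% and 0.389% at a -log10 q of 20, and 4.76%, 28.6%, 65.1% and 4.76% at an input minimum of 2 RPM. With as many peaks as the shortest list has, the EPSC and MEF shares were 6.61% and 15.2%. In the 78 regions chosen without Lars2 and Rn45s the shares were 43.6%, 67.9%, 80.8% and 38.5%, against 68.2%, 79.1%, 86.5% and 55.7% in the other regions enriched on that scale. In the 12 members with intervals clear of both thresholds, an alternative chosen after seeing the data, they were 8.33%, 50.0%, 66.7% and 8.33%. The median exonic length of 300 bp was 1420.5 bp in the 78 regions, 1567 bp at an input minimum of 2 RPM and 500 bp with 1 region per gene. The share with several blocks was 6.41% in the 78 regions and 7.94% at 2 RPM. The median log2 input difference was 0.31 at 2 RPM, and the median log2 fold change of the authors' deposited table was -2.62 in the 78 regions and -2.30 at 2 RPM. These alternatives change which regions are counted, which peaks are used or how much overlap is needed. Beyond that the cause was not tested. No member median changed sign in the alternatives run. The members' shares of overlap changed sides against other regions in some. The EPSC share was above that of the other enriched regions in the 12 members, but that comparator covers regions of any depth. At 2 RPM the other enriched regions had 65.7%. Against regions at large, the EPSC share was above in the 12 members, in the 78 regions and at 2 RPM (28.6% against 27.6%). So was the MEF share (65.1% against 55.8% at 2 RPM), and the E14 share was above in the 78 regions. The median log2 input difference over all regions changed from -0.10 to 0.22 without Lars2 and Rn45s. Depth limits single members, since 141 of 257 had under 50 wild-type input reads.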

Other observations

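A peak of the E14 list from 25K nuclei met 2 members (0.778%), against 11.3% of the other wild-type enriched regions and 4.87% of all regions at the input minimum. A peak of the list from 5K nuclei met 12 members (4.67%, 2.69 to 7.98), against 12.2% of the other enriched regions and 7.09% of all regions, which lies inside the members' interval. The median log2 difference between the fold change of the authors' deposited table and that of the RPM ratios was -0.50 in the members and -0.50 over all regions, while for Fbxo30 the authors' deposited table gave -3.35 and the RPM ratios -1.62.

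Members with a lower input in Mettl3 KO cells were 65 of 257, with a median log2 m6A-CT difference of -2.28, against -1.31 in the 192 with a higher input. The ratio change was nearly the same in both, at -1.86 and -1.95. The rule bounds the ratio of the 2 terms in each genotype.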
